A study of Mus musculus with 6 samples.

Results

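The 9 genes C1qa, C1qb, C1qc, Trem2, Tyrobp, P2ry12, Tmem119, Csf1r and Apoe were followed in cells of the mouse sciatic nerve. They were chosen by symbol from the gene names of the deposited matrices, where each symbol stood for 1 of the 41605 genes in all 6 libraries. All 9 genes were measured in every library. The values below are UMI counts, in which each captured RNA molecule is counted once by its unique molecular identifier, summed per library and cell group and given as counts per 1000000 UMIs of that group (CPM).

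Nerves came from newborn mice (P1, the first postnatal day) and young adults (P60), with 3 independent libraries per age. All mice had the genotype P0Cre-/+ : ReYFP Tg/+ : βAct-DsRed Tg/+ on the C57bl/6J background, so every cell carried a DsRed transgene driven by the chicken beta actin promoter, and Schwann cells also carried a yellow reporter switched on by Cre. Nerves of both sexes were pooled, dissociated with enzymes and sorted for DsRed by flow cytometry, and at P1 part of the double-positive Schwann cells was removed in the sort. There was no treatment, and the groups differed in age and in this step of the sort. The libraries held 20203440 to 30334608 UMIs and 3435 to 4586 cells with 500 to 5000 genes, 24337 of 24510 barcodes in all.

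Macrophages of peripheral nerve clear debris, sense lipid and present antigen, and they share part of their gene expression with microglia, the resident macrophages of brain and spinal cord. C1qa, C1qb and C1qc encode the chains of C1q, the recognition molecule that starts the classical complement pathway. Trem2 is a lipid-sensing receptor that signals through the adaptor Tyrobp, P2ry12 is an ADP receptor and Tmem119 a membrane protein, both widely used as markers of microglia, Csf1r is the receptor for the survival factors Csf1 and Il34, and Apoe carries lipid between cells.

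An immune cell was any cell with at least 1 UMI of Ptprc (CD45) or Cd68, a lysosomal protein of phagocytes. There were 1158 such cells at P1 and 1423 at P60. A macrophage was an immune cell with UMIs of at least 4 of 9 myeloid genes (Adgre1, Fcgr1, Fcgr3, Mertk, Ctss, Lyz2, Cd14, Fcer1g and Aif1) and at least 1 UMI of Adgre1, Fcgr1 or Mertk, which gave 829 cells at P1 and 770 at P60. No gene of the 9 was used to choose these cells. At P60 the macrophages were split by Retnla, which encodes the secreted protein RELM alpha. Cells with at least 1000 CPM of Retnla were called Retnla-high (336 cells) and the others Retnla-low (434 cells, of which 266 had no Retnla UMI). Near the boundary, 40 macrophages (5.19%) lay between 500 and 2000 CPM. No UMI of Retnla was found in P1 macrophages.

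The word microglia-like was checked against genes that define microglia. Sall1, a transcription factor of microglia, had 0 UMIs in the macrophages of both ages, where 3 UMIs would have given 0.435 CPM at P1 and 0.834 CPM at P60. Siglech, another microglial gene, was at 4.15 ± 2.27 CPM at P1 and 46.7 ± 14.4 CPM at P60 (mean ± SD, n = 3 libraries each, as for every such value below). P2ry12 and Tmem119 were both lower at P60, as described below. The markers therefore did not go together, and the 9 genes are named here by their symbols only.

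Immune cells were 9.92% ± 0.805 of the kept cells at P1 and 11.3% ± 1.10 at P60 (exact two-sided permutation test, p = 0.2). The difference was 1.42 points, and it turned to -0.609 points (exact permutation p = 0.2) when 3 UMIs of Ptprc and Cd68 were required. Because Schwann cells were removed in part at P1 and not at P60, the kept cells that these shares are taken over were set differently at the ages, and the shares cannot be told apart from the sort. Macrophages made up 71.6% ± 3.00 of the immune cells at P1 and 53.9% ± 1.95 of those in the adult nerve (exact permutation p = 0.1, the smallest that 3 against 3 libraries can give). With 4 of 9 myeloid genes as the rule alone, a setting chosen for this share after the data were seen, these were 78.5% ± 1.88 and 73.5% ± 3.61 (exact permutation p = 0.2), so the size of the difference depended on the gate. Immune-cell values therefore hold macrophages and other cells in shares that the gate sets in part. P60 cells were shallower, with medians of 3823 to 4226 UMIs per macrophage against 6758 to 8163 at P1. In P60 replicate 3, 16.2% of all cells had more than 10% mitochondrial counts, but 0.405% to 3.07% of the macrophages of the 6 libraries did. Libraries shared 13 to 32 cell barcodes per pair and at most 1 among macrophages.

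C1qa, C1qb and C1qc lie next to each other on chromosome 4 of the mouse genome (GRCm38, GENCODE M21), all on the minus strand. C1qb spans chr4:136880129-136886187, C1qc chr4:136889804-136893065 and C1qa chr4:136895917-136898803. Outside this cluster, Trem2 is at chr17:48346401-48354147 (plus strand), Tyrobp at chr7:30413760-30417585 (plus), P2ry12 at chr3:59216272-59262871 (minus), Tmem119 at chr5:113793729-113800516 (minus) and Apoe at chr7:19696109-19699188 (minus). P2ry12 lies inside Med12l on the opposite strand, and Csf1r overlaps Hmgxb3 on the opposite strand and Mir6983 on its own. Whether counting used the strand is not given in the sources used here, so reads of these overlaps cannot be set apart.

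The 250 bases before the start are shown for C1qb and C1qc, neighbours that moved little, and for Trem2 and Apoe, the 2 genes with the largest difference between the Retnla classes among the 8 that passed the filter on low counts (RefSeq, GRCm38.p6, gene strand, 5′ to 3′). Promoters were listed for 5 of the 9 genes with 7 starts, 3 of them of Apoe, of which the outermost is printed. Capitals mark GAGGAA or its reverse complement TTCCTC, letters of the binding site of PU.1 (Spi1), the transcription factor of myeloid cells, and TGCTGA or TCAGCA, letters of a Maf site. Windows are C1qb chr4:136886201-136886450 (minus), C1qc chr4:136892915-136893164 (minus), Trem2 chr17:48346151-48346400 (plus) and Apoe chr7:19699189-19699438 (minus).
C1qb: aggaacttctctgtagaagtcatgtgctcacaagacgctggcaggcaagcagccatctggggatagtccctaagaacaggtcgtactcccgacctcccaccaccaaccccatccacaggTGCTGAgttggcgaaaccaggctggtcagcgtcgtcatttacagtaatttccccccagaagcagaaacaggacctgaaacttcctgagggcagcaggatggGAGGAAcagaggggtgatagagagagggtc
C1qc: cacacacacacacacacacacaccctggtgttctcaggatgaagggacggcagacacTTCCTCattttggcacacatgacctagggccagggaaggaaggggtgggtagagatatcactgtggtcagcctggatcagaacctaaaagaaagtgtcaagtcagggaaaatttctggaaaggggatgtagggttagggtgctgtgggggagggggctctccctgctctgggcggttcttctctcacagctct
Trem2: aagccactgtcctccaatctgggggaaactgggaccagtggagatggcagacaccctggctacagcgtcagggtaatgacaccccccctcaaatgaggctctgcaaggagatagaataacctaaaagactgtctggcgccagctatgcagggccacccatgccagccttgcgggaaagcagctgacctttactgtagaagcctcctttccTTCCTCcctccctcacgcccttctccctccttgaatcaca
Apoe: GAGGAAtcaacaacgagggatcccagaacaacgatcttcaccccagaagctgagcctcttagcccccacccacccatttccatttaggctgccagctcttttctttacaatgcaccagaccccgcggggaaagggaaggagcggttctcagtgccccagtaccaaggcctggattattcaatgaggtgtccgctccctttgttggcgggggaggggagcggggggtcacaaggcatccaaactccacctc
GAGGAA or TTCCTC began 30 bases before the start of C1qb, 193 before C1qc, 40 before Trem2 and 250 before the outermost Apoe start, and TGCTGA began 131 bases before C1qb. The 2 motifs share no overlapping letters in these windows, and P2ry12 held neither. Of 32851 mouse promoters cut to the same length, 23.3% held the first motif on either strand and 16.1% the second, so these matches are a description and no evidence of binding.

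The first comparison asked how the 9 genes differed between P1 and P60 immune cells as a whole. By edgeR's quasi-likelihood test with Benjamini-Hochberg adjustment, 5 of the 9 were lower at P60 and none was higher, where 39.8% of the 11232 genes tested changed and 17.9% were lower. The 5 were Trem2, Tyrobp, P2ry12, Tmem119 and Apoe. The median change of the 9 genes was -0.46 on the log2 scale, beside 0.03 over all genes tested.

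In immune cells, Trem2 was 548, 594 and 550 CPM in P1 replicates 1 to 3 and 89.3, 96.6 and 122 CPM in P60 replicates 1 to 3, a log2 change of -2.41 ± 0.14 (SE, adjusted p = 2.1e-06). Tmem119 was 68.7, 65.4 and 61.2 CPM at P1 and 21.2, 17.3 and 6.55 CPM at P60 (log2 change -2.08 ± 0.30, adjusted p = 0.00040). P2ry12 was 88.4, 96.6 and 84.8 CPM at P1 and 29.2, 39.0 and 29.5 CPM at P60 (log2 change -1.42 ± 0.16, adjusted p = 0.00012). For all 3 genes every P60 library lay below every P1 library. Apoe fell by 0.60 ± 0.11 (adjusted p = 0.0015) and Tyrobp by 0.46 ± 0.11 (adjusted p = 0.0092) on the log2 scale. The C1q genes and Csf1r did not pass the test, with log2 changes of 0.22 for C1qa, -0.26 for C1qb, -0.14 for C1qc and -0.25 for Csf1r (adjusted p = 0.24, 0.11, 0.32 and 0.15).

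**Figure D1:**
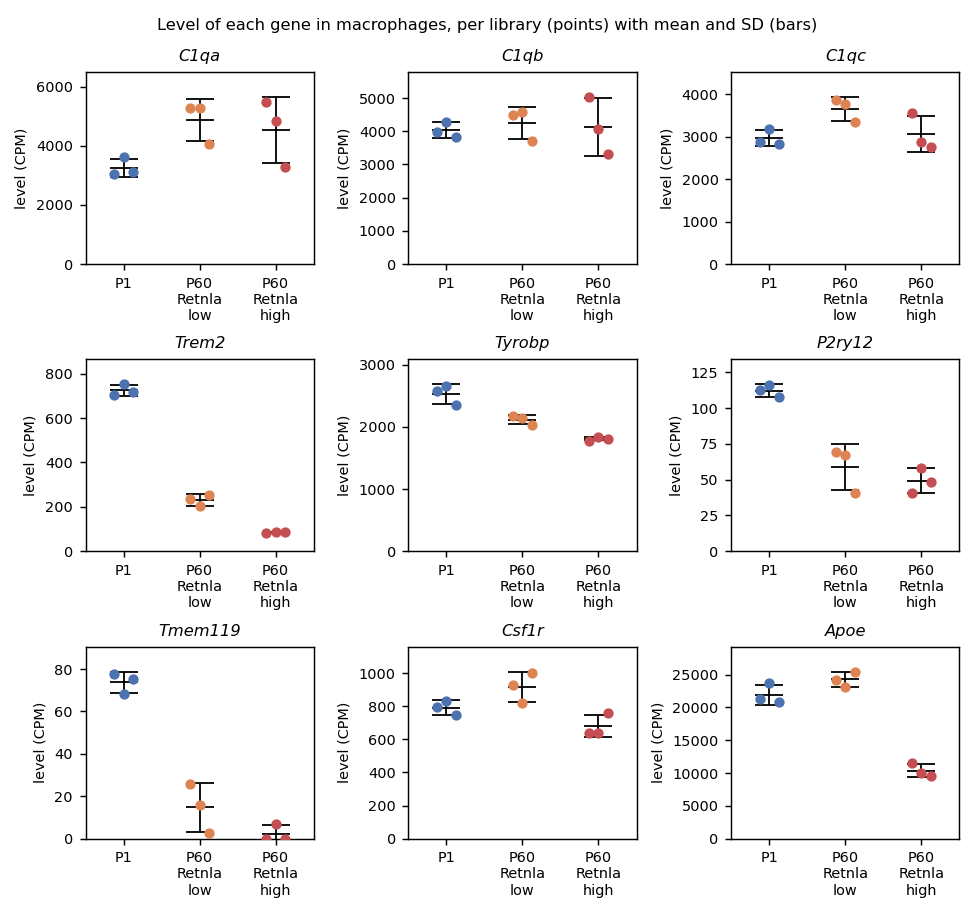
Level of each of the 9 genes (CPM, linear axis from 0) in the summed macrophages of each library, with points for single libraries and bars for mean and SD, at P1 and in the Retnla-low and Retnla-high classes at P60. Trem2 lay at 704 to 752 CPM at P1, 205 to 256 CPM in Retnla-low and 82.0 to 87.6 CPM in Retnla-high cells, whereas C1qb overlapped between all 3 groups.

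The second comparison took macrophages alone, leaving out the other immune cells of the gate. Here 5 of the 9 genes passed the test, 1 higher and 4 lower at P60, where 36.0% of 9376 genes changed and 17.0% were lower. C1qa rose, and Trem2, Tmem119, P2ry12 and Tyrobp fell. The median change of the 9 was -0.24, beside 0.02 over all genes tested.

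C1qa was 3035, 3607 and 3110 CPM in the P1 libraries and 5385, 5042 and 3737 CPM in the P60 libraries. Each P60 library was above each P1 library, by a narrow margin for P60 replicate 3. The log2 change was 0.61 ± 0.14 (adjusted p = 0.0058), or 1.53-fold. C1qb was 3977, 4292 and 3839 CPM at P1 and 4765, 4319 and 3526 CPM at P60, so its ages overlapped (log2 change 0.13 ± 0.12, adjusted p = 0.41). C1qc was 2875, 3178 and 2830 CPM at P1 and 3704, 3317 and 3097 CPM at P60, and P60 replicate 3 lay within the P1 range (log2 change 0.26 ± 0.10, adjusted p = 0.064). P60 replicate 3 was the lowest P60 library for all 3 C1q genes. Without it, C1qb (log2 change 0.25, adjusted p = 0.019), C1qc (0.32, adjusted p = 0.0047) and Apoe (-0.27, adjusted p = 0.0100) passed as well, and 8 of the 9 genes were called.

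The 3 chains are built into C1q in equal number, which makes their proportions of interest, and the proportions were examined after these values were seen. C1qa gave 30.7%, 32.6% and 31.8% of the C1q UMIs in P1 macrophages and 38.9%, 39.8% and 36.1% at P60. C1qb gave 40.2%, 38.7% and 39.3% at P1 and 34.4%, 34.1% and 34.0% at P60. C1qa thus took a larger share and C1qb a smaller share in every P60 library. C1qc gave 29.1%, 28.7% and 28.9% at P1 and 26.7%, 26.2% and 29.9% at P60, with overlap. C1qa to C1qb UMIs stood at a ratio of 0.805 ± 0.0390 in the P1 and 1.12 ± 0.0547 in the P60 libraries (p = 0.1 by an exact two-sided permutation test, the smallest possible). These ratios do not depend on the scaling of the libraries or on the level of C1q as a whole. UMI counts of different genes are captured with different efficiency, so the shares say nothing of the absolute amounts of the chains.

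**Figure D2:**
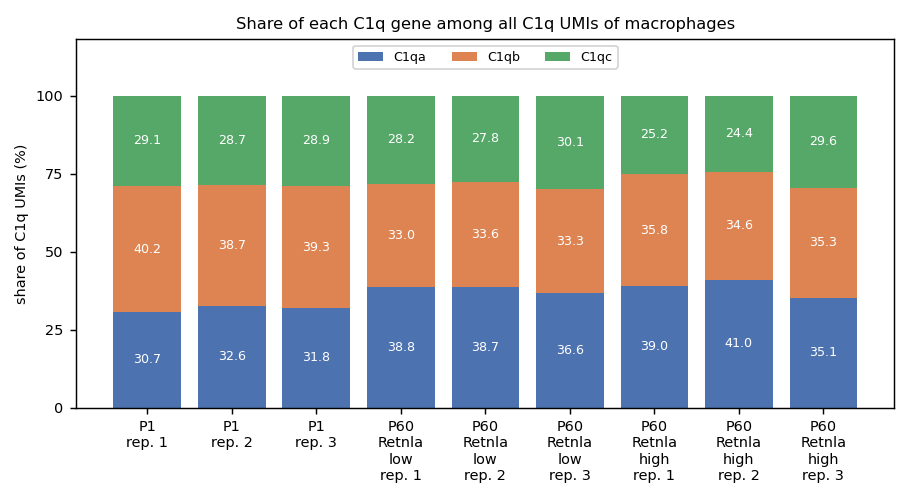
Stacked bars of the share of C1q UMIs (percent) given by C1qa, C1qb and C1qc in the macrophages of each library, at P1 and in the Retnla classes at P60. C1qa gave 30.7% to 32.6% at P1, 36.6% to 38.8% in Retnla-low and 35.1% to 41.0% in Retnla-high cells, and C1qb gave less in every P60 bar than in any P1 bar.

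Trem2 was 704, 752 and 719 CPM in P1 macrophages and 159, 145 and 184 CPM in P60 macrophages. The spread within an age was far smaller than the gap between ages, and Trem2 was 4.23-fold lower at P60 (log2 change -2.08 ± 0.12, adjusted p = 9.8e-07). Tyrobp, its adaptor, was 2570, 2659 and 2353 CPM at P1 and 1977, 1983 and 1938 CPM at P60. The libraries of the ages did not overlap, but the change was small (log2 change -0.29 ± 0.09, adjusted p = 0.031), and the call was lost with DESeq2 (adjusted p = 0.119) and with the replicate number as a block (adjusted p = 0.053). Receptor and adaptor therefore changed to very different degrees in the same cells.

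P2ry12 was 112, 116 and 107 CPM in P1 macrophages and 55.4, 62.7 and 44.0 CPM in P60 macrophages, 1.98-fold lower (log2 change -0.98 ± 0.16, adjusted p = 0.00079). Tmem119 was 77.8, 68.3 and 75.5 CPM at P1 and 12.9, 11.3 and 1.47 CPM at P60, 8.55-fold lower (log2 change -3.10 ± 0.36, adjusted p = 0.00012). For both genes the ages were well apart. P60 replicate 3 was the lowest for both, and without it the log2 changes were -0.84 and -2.53.

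Csf1r was 794, 835 and 746 CPM in P1 macrophages and 786, 728 and 899 CPM in P60 macrophages, with full overlap (log2 change 0.10 ± 0.11, adjusted p = 0.53). Apoe was 21323, 23646 and 20807 CPM at P1 and 17886, 16495 and 18735 CPM at P60. Its ages did not overlap, and its change missed the threshold (log2 change -0.24 ± 0.09, adjusted p = 0.053).

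Markers of other leukocytes moved with age in the macrophages. The summed dendritic cell list was at 3.76 to 21.8 CPM at P1 and 136 to 189 CPM at P60, and the monocyte list (Ly6c2, Ccr2 and Plac8) at 117 to 232 CPM and 504 to 628 CPM, with every gene of both lists detected. In Pdgfra-positive fibroblast-like cells without Ptprc or Cd68 UMIs, the monocyte list was at 150 to 159 CPM and 515 to 610 CPM. The sum of this list therefore did not set leukocytes apart from those cells. Most of the dendritic cell sum was 1 gene, Cd209a, at 9.59 ± 7.76 CPM at P1 and 157 ± 29.3 CPM at P60. The B cell list (Cd79a, Cd79b and Ms4a1) went the other way, at 51.8 to 64.8 CPM at P1 and 26.1 to 29.5 CPM at P60. Most of its P1 sum was Cd79b, at 57.7 ± 6.76 CPM. Of the macrophages, 33.3% to 42.8% at P1 and 30.2% to 32.5% at P60 held a UMI of dendritic, mast, T, NK or B cell markers. At P1 these were mainly UMIs of the B cell list, found in 35.6% of macrophages at P1 and 11.6% at P60. The dendritic cell list was found in 3.02% and 21.0%. Without macrophages that held a UMI of dendritic, mast, T, NK or B cell markers, the log2 changes were -1.93 for Trem2, -2.85 for Tmem119, -0.92 for P2ry12 and 0.71 for C1qa, all still called, and C1qc passed as well (0.33, edgeR adjusted p = 0.044), while Tyrobp did not (-0.24, adjusted p = 0.095).

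Shares of cells with a UMI were compared after thinning each cell to 1500 UMIs, which left out 3 of the 1599 macrophages. Trem2 was then found in 63.2% ± 4.07 of P1 macrophages and 22.1% ± 2.59 of P60 macrophages, and in 0.126% and 0.133% of Pdgfra-positive fibroblast-like cells, which should lack it. Before thinning the macrophage shares were 94.0% and 40.2%. P2ry12 was found in 15.6% ± 1.62 and 6.84% ± 0.594 of macrophages after thinning (54.2% and 20.2% before). Tmem119 was found in 10.4% ± 1.14 and 1.14% ± 0.784 (35.9% and 2.96% before), and the P60 share was below the 7.08% of Pdgfra-positive cells. For these 3 genes the share and the summed level moved the same way (exact permutation p = 0.1 each, the smallest possible, and 0.129 adjusted over the 9 genes).

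The other genes were found in most macrophages. Csf1r had a thinned share of 70.3% ± 4.16 in P1 and 66.9% ± 2.25 in P60 macrophages (p = 0.4 by the exact permutation test), and Tyrobp of 95.4% ± 0.973 and 93.3% ± 0.929 (p = 0.1). Apoe was found in 98.3% ± 0.869 and 86.5% ± 4.11 (exact permutation p = 0.1), but also in 22.3% and 42.7% of Pdgfra-positive cells. The C1q shares were 84.1% to 85.8% at P60 and 89.9% to 92.9% at P1, against the direction of their summed levels, so no order was read from them. Median depths before thinning were 7689 to 8552 UMIs in P1 and 4385 to 6087 UMIs in P60 Pdgfra-positive cells.

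**Figure D3:**
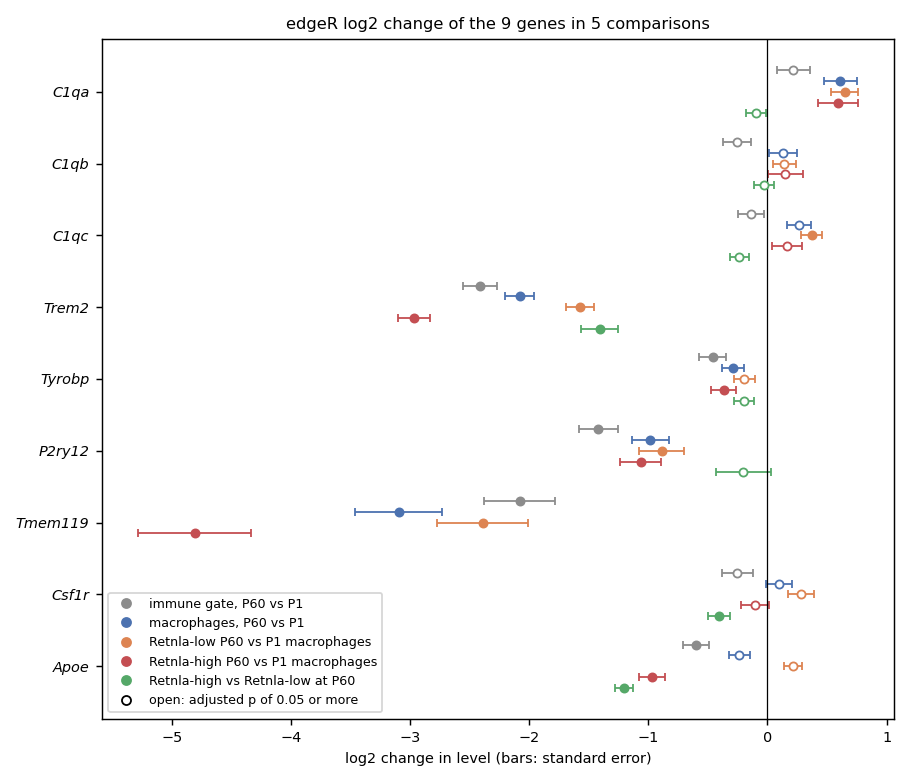
Log2 change (points, with bars for the SE) of each gene in 5 comparisons of summed counts, with open points where the edgeR adjusted p was 0.05 or more. Trem2 was lower in all 5, and Apoe was 1.20 lower in Retnla-high than in Retnla-low macrophages.

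The third comparison set Retnla-high against Retnla-low macrophages within the P60 libraries, with the library as a block because both classes came from the same suspensions. Of the 8 genes that passed the filter on low counts, Trem2, Csf1r and Apoe were lower in Retnla-high cells and none was higher, where 14.0% of 5906 genes differed and 6.86% were lower. The median over the 8 was -0.22, beside -0.01 over all genes tested. Tmem119 did not pass the filter. Retnla took 30057 to 34647 CPM of the Retnla-high sums, and median depths were 3919 to 5643 UMIs in Retnla-high and 3509 to 4317 UMIs in Retnla-low cells.

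Apoe was 11490, 10018 and 9570 CPM in the Retnla-high cells of P60 replicates 1 to 3 and 24157, 23161 and 25462 CPM in the Retnla-low cells of the same libraries. Every library showed the same gap, and Apoe was 2.30-fold lower in Retnla-high cells (log2 difference -1.20 ± 0.08, adjusted p = 2.3e-09). Trem2 was 82.0, 87.6 and 86.6 CPM in Retnla-high and 234, 205 and 256 CPM in Retnla-low cells, 2.65-fold lower (log2 difference -1.41 ± 0.16, adjusted p = 2.7e-06). Both genes were lower in Retnla-high cells of each library by more than the spread among libraries.

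Csf1r was 641, 640 and 757 CPM in Retnla-high and 929, 818 and 1003 CPM in Retnla-low cells (log2 difference -0.40 ± 0.09, adjusted p = 0.0057). The direction was the same in each library, but the call was lost with DESeq2 (adjusted p = 0.12), without the block (0.198) and without P60 replicate 1 (0.060). Tyrobp was 1781, 1834 and 1811 CPM in Retnla-high and 2170, 2136 and 2031 CPM in Retnla-low cells (log2 difference -0.20 ± 0.08, adjusted p = 0.12). As between the ages, the adaptor differed less than the receptor.

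C1qa was 5478, 4825 and 3289 CPM in Retnla-high and 5294, 5265 and 4065 CPM in Retnla-low cells (log2 difference -0.10 ± 0.08, adjusted p = 0.49). C1qb was 5033, 4075 and 3301 CPM against 4503, 4571 and 3692 CPM (-0.03 ± 0.08, adjusted p = 0.87). The direction of these 2 genes differed between the libraries. C1qc was 3550, 2866 and 2767 CPM against 3854, 3781 and 3339 CPM, lower in Retnla-high cells of all 3 libraries without passing the test (-0.24 ± 0.08, adjusted p = 0.059). P2ry12 was 41.0, 58.4 and 48.5 CPM against 69.5, 67.1 and 40.7 CPM (-0.20 ± 0.23, adjusted p = 0.63). Tmem119 was 0, 6.87 and 0 CPM in Retnla-high and 25.6, 15.9 and 2.54 CPM in Retnla-low cells, too few UMIs for a test.

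Markers of other leukocytes were present in both classes. The summed dendritic cell list (Flt3, Cd209a, Xcr1, Clec9a and Ccr7) was at 129 to 175 CPM in Retnla-high cells, where Clec9a and Ccr7 were at 0 UMIs, and at 141 to 249 CPM in Retnla-low cells, with overlap. Cd209a alone was at 144 ± 24.2 CPM in Retnla-high and 171 ± 61.2 CPM in Retnla-low cells. The B cell list (Cd79a, Cd79b and Ms4a1) was at 0 to 13.1 CPM in Retnla-high and 42.0 to 53.0 CPM in Retnla-low cells. Ms4a1 was at 0 UMIs in both classes and Cd79a in the Retnla-low class. A UMI of the dendritic cell list was found in 27.1% of Retnla-high and 16.4% of Retnla-low cells, and of the B cell list in 3.57% and 17.7%. Macrophages with any UMI of dendritic, mast, T, NK or B cell markers were then left out. In P60 replicates 1 to 3, 62, 80 and 95 Retnla-high and 81, 89 and 122 Retnla-low cells remained. Among the remaining cells 7 of the 8 genes passed, all lower in Retnla-high cells, where 15.7% of 4574 genes tested differed and 7.70% were lower. The log2 differences were then -1.92 for Trem2, -1.43 for Apoe, -0.83 for P2ry12, -0.57 for Csf1r, -0.40 for C1qc, -0.29 for Tyrobp and -0.29 for C1qa (edgeR adjusted p = 5.2e-07, 2.1e-09, 0.040, 0.0015, 0.0049, 0.044 and 0.043), and -0.23 for C1qb (0.104). The part of the left-out cells in the values above was not tested further.

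**Figure D4:**
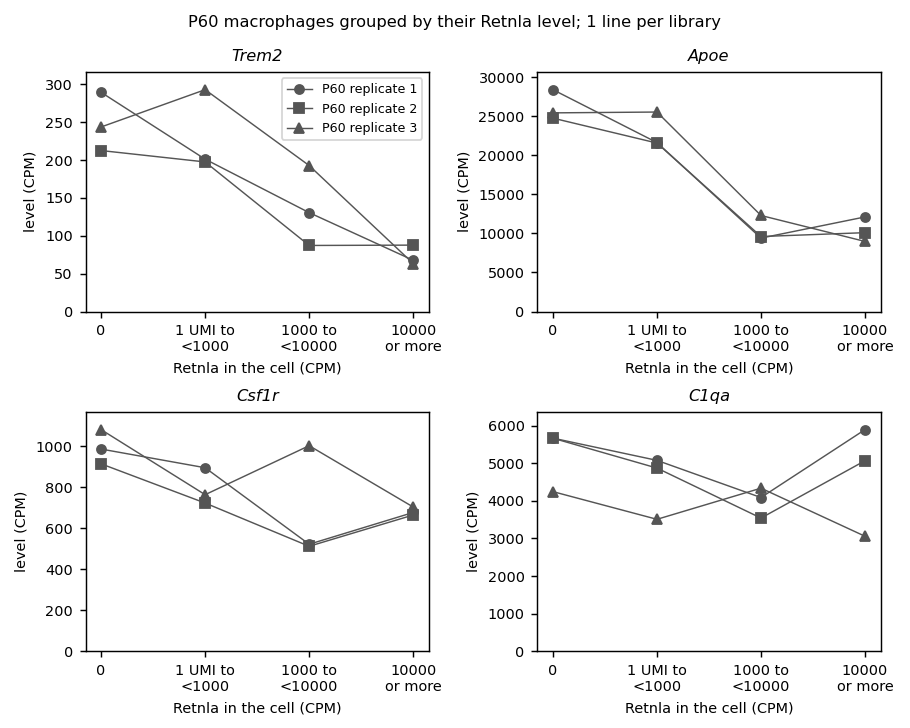
Level (CPM, linear axis from 0) of Trem2, Apoe, Csf1r and C1qa in P60 macrophages grouped by their Retnla level, with 1 line per library. Apoe stepped down between the second and the third bin in each library, and Trem2 was at 63.4 to 87.6 CPM in the top bin.

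The level across 4 bins of Retnla was described without a test. The bins were 0 UMIs (266 cells), 1 UMI to under 1000 CPM (168 cells), 1000 to under 10000 CPM (63 cells) and 10000 CPM or more (273 cells). Retnla itself was found at 58.8 to 132 CPM in P60 Pdgfra-positive cells, so a single UMI marks little. Apoe averaged 26200 ± 1939, 22914 ± 2275, 10432 ± 1617 and 10393 ± 1590 CPM over the 4 bins, a step between the second and the third. Trem2 averaged 248 ± 38.7, 230 ± 54.1, 137 ± 53.0 and 72.9 ± 12.9 CPM, with the third bin between its neighbours. Csf1r averaged 993, 794, 679 and 682 CPM and C1qa 5190, 4484, 3988 and 4672 CPM, and the bins of C1qa overlapped in their spread. The third bin held 21, 16 and 26 cells in replicates 1 to 3, and its Csf1r was 522, 512 and 1002 CPM, so replicate 3 stood apart there.

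After thinning to 1500 UMIs, Trem2 was found in 12.3% ± 3.38 of Retnla-high and 29.7% ± 2.24 of Retnla-low cells. Apoe was found in 77.2% ± 3.21 and 93.7% ± 4.36, and Csf1r in 56.1% ± 7.05 and 75.4% ± 2.48 (exact two-sided sign-flip p = 0.25 each, the smallest that 3 libraries allow). C1qa was found in 77.1% ± 4.45 of Retnla-high and 89.9% ± 1.47 of Retnla-low cells, a wider gap than its summed level showed. P2ry12 was found in 7.28% and 6.49% (exact p = 0.75), against the direction of its summed level, and no order was read from it. Within the C1q UMIs, Retnla-high cells had 1.96 points more C1qb and 2.30 points less C1qc than Retnla-low cells (exact sign-flip p = 0.25 each, the smallest possible).

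Each Retnla class was also set against P1 macrophages. These comparisons share the P1 sums with each other and with the second comparison, so their values stand side by side and are not independent. In Retnla-high cells 6 of the 9 genes passed, 1 higher and 5 lower (36.4% of 8709 genes tested changed), and in Retnla-low cells 5 passed, 2 higher and 3 lower (28.1% of 8893 genes). Trem2 was 7.83-fold lower than at P1 in Retnla-high cells (log2 change -2.97 ± 0.13, adjusted p = 1.3e-08) and 2.98-fold lower in Retnla-low cells (-1.58 ± 0.12, adjusted p = 1.2e-05). Apoe was 1.95-fold lower than at P1 in Retnla-high cells (-0.97 ± 0.11, adjusted p = 3.5e-05) and 0.21 ± 0.08 higher on the log2 scale in Retnla-low cells, which missed the threshold (adjusted p = 0.063). Trem2 was thus below its P1 level in both classes, and Apoe in the Retnla-high class.

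C1qa was above its P1 level in Retnla-high (log2 change 0.60, adjusted p = 0.014) and Retnla-low cells (0.65, adjusted p = 0.0022), and C1qc passed only in the latter (0.16, adjusted p = 0.33, and 0.37, adjusted p = 0.011). P2ry12 was lower in both (-1.06, adjusted p = 0.00044, and -0.89, adjusted p = 0.0063). Tmem119 was lower in both as well (-4.81, adjusted p = 1.1e-05, and -2.39, adjusted p = 0.0014), and the first value rests on 4 UMIs in the Retnla-high sums. Tyrobp passed in Retnla-high cells (-0.37, adjusted p = 0.017) and not in Retnla-low cells (-0.19, adjusted p = 0.12). Csf1r passed in neither (-0.11, adjusted p = 0.52, and 0.28, adjusted p = 0.082), nor did C1qb (0.15 and 0.14, adjusted p = 0.45 and 0.31).

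Other cells of the nerve were then examined for the same genes. Cells without Ptprc or Cd68 UMIs were grouped by at least 2 UMIs of Sox10 (Schwann cells), Pdgfra (fibroblast-like cells), Pecam1 (endothelial cells) or Rgs5 (pericytes), with none of the other 3 markers. C1qa was at 2.79 to 6.37 CPM in these groups at P1 and at 11.0 to 133 CPM at P60, against 3035 to 5385 CPM in macrophages. Free RNA in the suspension gives UMIs in cells that do not express a gene and was not measured in empty droplets. Between ages, 4 of 5 tested genes passed in Sox10-positive cells (18.2% of all genes), 6 of 7 in Pdgfra-positive cells (52.9%), 4 of 4 in Pecam1-positive cells (37.9%) and 1 of 2 in Rgs5-positive cells (25.8%), all of them higher at P60. Some of these genes could pass the filter on low counts only through their P60 level, which largely fixed their direction in advance. In Sox10-positive cells they were C1qa, C1qc and Tyrobp. Their means there were 4.47, 2.95 and 3.97 CPM at P1 and 59.5, 52.0 and 35.0 CPM at P60. C1qa and Tyrobp in Pecam1-positive cells were alike, at 4.40 and 3.89 CPM at P1 and 18.1 and 9.43 CPM at P60. The counts are therefore a description.

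**Figure D5:**
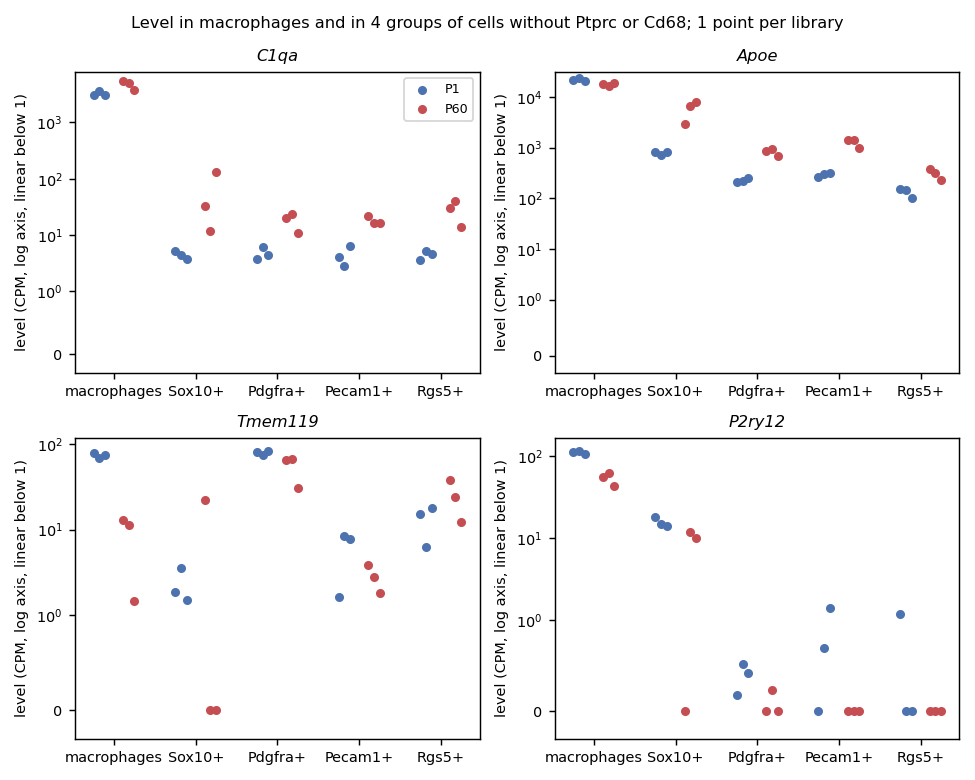
Level (CPM, log axis that is linear below 1 CPM) of C1qa, Apoe, Tmem119 and P2ry12 in macrophages and the 4 other cell groups, with 1 point per library at P1 and P60. Apoe was higher at P60 in each of the 4 other groups, and Tmem119 in P60 Pdgfra-positive cells (30.6 to 67.7 CPM) exceeded that in P60 macrophages (1.47 to 12.9 CPM).

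Apoe rose in all 4 groups, and the mean levels of C1qa, C1qb, C1qc, Tyrobp and Csf1r were also higher at P60 in each. Of the genes followed, only Apoe passed the filter on low counts in every group, so only Apoe was tested in all 4. It was 803, 717 and 799 CPM in Sox10-positive cells at P1 and 2954, 6722 and 7906 CPM at P60 (log2 change 2.78 ± 0.26, adjusted p = 2.9e-07), where the P60 sums held 16, 26 and 34 cells. In Pdgfra-positive cells it was 208, 223 and 247 CPM at P1 and 863, 950 and 667 CPM at P60 (1.94 ± 0.14, adjusted p = 6.3e-07). In Pecam1-positive cells it was 266, 307 and 318 CPM at P1 and 1385, 1418 and 998 CPM at P60 (2.10 ± 0.15, adjusted p = 1.8e-07). In Rgs5-positive cells it was 152, 148 and 102 CPM at P1 and 374, 318 and 228 CPM at P60 (1.19, adjusted p = 0.00090). The ages did not overlap in any of the 4 groups.

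The age change of Apoe differed between macrophages and these cells in a model with an interaction term over 12897 genes. The log2 change was 2.85 ± 0.24 higher in Sox10-positive cells (adjusted p = 1.5e-09, where 7.64% of all genes differed) and 2.18 ± 0.24 higher in Pdgfra-positive cells (adjusted p = 1.7e-08, 22.2% of all genes). Apoe was also set against the C1q UMIs of the same sums. There were 2.14 Apoe UMIs per C1q UMI in P1 macrophages and 1.46 in P60 macrophages. In Sox10-positive cells there were 61.8 and 30.2, in Pdgfra-positive cells 13.9 and 20.0, in Pecam1-positive cells 22.5 and 30.0, and in Rgs5-positive cells 7.52 and 5.38. The part of free RNA in these ratios was not tested.

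Tyrobp was set against C1q in the same way. It gave 0.247 UMIs per C1q UMI in P1 macrophages and 0.162 in P60 macrophages, and 0.271 to 0.316 at P1 and 0.148 to 0.230 at P60 in the other 4 groups. These ratios rest on 48 to 564 C1q UMIs per group. The C1qa, C1qc and Tyrobp calls in Sox10-positive cells rested on P60 replicate 3, without which their log2 changes were 2.08, 1.67 and 1.25 (adjusted p = 0.18, 0.45 and 0.56). The part of free macrophage RNA in these low values was not tested.

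Tmem119 was not a gene of macrophages alone. Pdgfra-positive cells held 80.1, 74.3 and 83.3 CPM at P1 and 64.7, 67.7 and 30.6 CPM at P60 (log2 change -0.47 ± 0.24, adjusted p = 0.12), so P60 replicate 3 was the lowest library here too. They held 4.90 Tmem119 UMIs per C1q UMI at P1 and 1.32 at P60, against 0.00725 and 0.000664 in macrophages. The age change of Tmem119 was 2.60 ± 0.27 higher on the log2 scale in Pdgfra-positive cells than in macrophages (interaction, adjusted p = 6.3e-09). The summed level of the fibroblast list (Pdgfra, Dcn, Lum and Col1a1) in macrophages was 1020 to 1478 CPM at P1 and 1106 to 1936 CPM at P60, with all 4 genes detected. Without the 62 macrophages that held 10 or more UMIs of Dcn, a setting chosen after the data were seen, the Tmem119 change in macrophages was -3.83 (edgeR adjusted p = 7.3e-06).

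P2ry12 outside macrophages was found in Sox10-positive cells. It was 18.1, 15.1 and 14.3 CPM there at P1 (48, 38 and 38 UMIs) and 0, 12 and 10.2 CPM at P60, where the cells were few. This gave 1.27 P2ry12 UMIs per C1q UMI at P1, against 0.0110 in P1 macrophages. In the other 3 groups no library exceeded 1.42 CPM. Trem2 and Csf1r reached at most 2.83 and 8.10 CPM in Pdgfra-positive, Pecam1-positive and Rgs5-positive cells. In order of level, macrophages stood first for all 9 genes at P1 except Tmem119, which did not differ beyond its spread between macrophages (73.8 ± 4.94 CPM) and Pdgfra-positive cells (79.2 ± 4.59 CPM).

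The ligands of Csf1r were measured in the cells around the macrophages. Csf1 was at 19.5 ± 0.870 CPM in Pdgfra-positive cells at P1 and 89.5 ± 2.34 CPM at P60 (log2 change 2.27 ± 0.12, adjusted p = 4.8e-08), and it rose in Pecam1-positive cells from 13.8 to 37.3 CPM (1.43, adjusted p = 0.00017). Il34 was at 104 ± 7.24 CPM in Rgs5-positive cells at P1 and 301 ± 85.8 CPM at P60 (1.54 ± 0.19, adjusted p = 0.00012). It also rose in Pdgfra-positive cells (1.83 to 25.1 CPM, log2 change 3.86, adjusted p = 3.2e-06) and Sox10-positive cells (22.7 to 81.3 CPM, 1.68, adjusted p = 0.0094). In macrophages Csf1 averaged 1.90 CPM at P1 and 4.31 CPM at P60 and Il34 0.139 and 3.72 CPM, below the filter for a test. In the immune gate as a whole Csf1 rose from 5.11 ± 0.939 to 15.6 ± 7.20 CPM (edgeR log2 change 1.64 ± 0.34, adjusted p = 0.0038). Both ligands thus rose in cells outside the immune gate, and Csf1 also in the gate as a whole. Csf1r in macrophages did not pass the test.

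Lrp1, a receptor that takes up Apoe, was at 105 and 111 CPM in P1 and P60 macrophages (0.16, adjusted p = 0.39). It rose in Pdgfra-positive cells from 140 to 350 CPM (1.39, adjusted p = 7.7e-07) and in Sox10-positive cells from 13.8 to 88.4 CPM (2.47, adjusted p = 0.0010).

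Lists of genes around the 9 were then counted in macrophages, where 36.0% of all genes tested changed with age and 14.0% differed between the Retnla classes. Of 14 tested genes of the microglia signature, 6 were higher and 6 lower at P60, with a median log2 change of 0.15 (12 of 14, against 36.0% of all genes). Siglech rose by 3.58 and the lysozyme gene Lyz2, itself a gene of the macrophage gate, by 2.12, while Cx3cr1, the fractalkine receptor gene, fell by 1.45 on the log2 scale. In Retnla-high against Retnla-low cells 1 was higher and 10 were lower, with a median of -0.89 (11 of 14, against 14.0%). Cx3cr1 was at 33.1 ± 20.0 CPM in Retnla-high and 257 ± 102 CPM in Retnla-low cells (log2 difference -2.96), and Olfml3 was lower as well (-1.93). The list was therefore split in direction between the ages and mostly lower in Retnla-high cells.

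Of 17 tested genes linked to Trem2-Tyrobp signalling and the lipid response, 5 were higher and 5 lower in P60 macrophages (median -0.04), beside 36.0% called over all genes. Itgax (2.33) and the cholesterol 25-hydroxylase gene Ch25h (2.32) rose, and the cathepsin gene Ctsd (-1.83) and the fatty acid binding protein gene Fabp5 (-1.78) fell. Between the Retnla classes, 5 of 14 were higher and 3 lower in Retnla-high cells (median -0.02), beside 14.0% over all genes. Lpl, lipoprotein lipase, was higher (1.35), as was the kinase gene Syk, which acts downstream of Tyrobp (0.83), and the tetraspanin genes Cd9 (-1.01) and Cd63 (-0.86) were lower.

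Of 14 genes of the classical complement pathway and its receptors, 9 were higher and 2 lower in P60 macrophages (median 1.32), where 36.0% of all genes changed. C4b rose from 3.12 ± 2.08 to 111 ± 13.1 CPM (log2 change 5.17), C3 from 2.89 ± 1.25 to 73.8 ± 18.1 CPM (4.70) and C1s1, a protease of the C1 complex, from 6.35 to 46.1 CPM (2.90). The C1 inhibitor gene Serping1 rose by 3.28 with a wide spread at P60 (220 ± 160 CPM). These changes were larger than that of any C1q gene. In the whole immune gate at P60, C3 was at 150 ± 63.6 CPM and Serping1 at 612 ± 288 CPM, above macrophages. C4b was at 90.4 ± 3.06 CPM there, below macrophages. The part of RNA from other cells in these rises was not tested. In Retnla-high against Retnla-low cells 2 were higher and 4 lower (median -0.24, 14.0% of all genes called), with C4b (1.82) and the integrin gene Itgam (1.27) higher and Cd93 (-1.22) and C3ar1 (-1.10) lower.

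Of 7 tested genes of the Csf1r axis, 2 were higher in P60 macrophages and none lower (median -0.03), among them the transcription factor gene Runx1 (0.75), a share no higher than the 36.0% over all genes. In Retnla-high cells 1 was higher and 2 were lower (median -0.24, 14.0% of all genes called), the latter being the transcription factor genes Irf8 (-1.77) and Runx1 (-1.19). Of 11 tested genes of Apoe and cholesterol handling, 2 were higher and 2 lower at P60 (median -0.19), a share near the 36.0% over all genes. Apoc1, which lies beside Apoe in the genome, fell from 73.4 ± 15.1 to 3.06 ± 0.374 CPM (log2 change -4.48), Lipa fell by 0.50, and Lpl rose by 1.21. Between the Retnla classes 3 of 9 passed (median 0.26), beside 14.0% over all genes, with Lpl (1.35) and the cholesterol exporter gene Abca1 (0.71) higher and the receptor gene Scarb1 (-1.23) lower in Retnla-high cells.

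The genes whose levels went most closely with those of the 9 were listed over the 9 sums of P1, Retnla-high and Retnla-low macrophages, among 2590 genes with at least 50 CPM on average. These sums share libraries and 3 levels of age and class, so the correlations are a description. For the summed C1q genes they were Rarres2 (Pearson r = 0.917), Syf2 (0.909) and Cul1 (0.908). For Trem2 they were Hspa8 (0.990), Hmgn1 (0.985) and Dusp2 (0.983), and for P2ry12 Pebp1 (0.971), Clptm1 (0.968) and Nsa2 (0.967). For Apoe they included Irf8 (0.984) and Ccl3 (0.983), and for Csf1r the immediate-early genes Ier2 (0.971), Fos (0.959) and Jun (0.956).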

How the data were processed

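UMI counts per gene and cell barcode were deposited by the authors for 6 libraries (Chromium Single Cell 3' v2), 3 per age. The submitters' processing notes name Cell Ranger 2.0.2 and GRCm38.p5. The counts were not normalized, and replicates were not pooled. Separate animals per library are not given in the labels, so p-values measure the spread between libraries. The matrices hold barcodes called as cells. No doublet caller was run, and cells with over 5000 genes were left out.

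Counts were summed per library and cell group, since cells are not replicates. Sums were tested with edgeR 4.0.16 (R 4.3.3; quasi-likelihood test, TMM scaling, filterByExpr, Benjamini-Hochberg adjustment over all genes tested, called at adjusted p under 0.05). The SE was taken as the absolute log2 change divided by the root of the F statistic and is approximate. Shares of cells used exact permutation tests (scipy 1.17.1) after thinning. The scripts were tested on simulated counts. Alternatives were DESeq2 1.42.0, its size factors, no filter on low counts, leaving out each library, a replicate block, limits on mitochondrial share and stricter or looser cell groups. Same-numbered P1 and P60 libraries did not deviate together (r = -0.109 to 0.0124), so the numbers were not taken as pairs, and the Retnla classes were paired by library.

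The 9 genes and the gene lists (microglia signature, Trem2-Tyrobp and lipid response, Csf1r axis, classical complement, Apoe and cholesterol handling, perivascular or epineurial macrophages, other leukocytes) were chosen with earlier results of these data known. Named were the 9 genes, up to 4 called genes per list and comparison with the largest absolute log2 change, the 3 genes most like a member, and Csf1, Il34 and Lrp1. Some genes that this rule names are not reported here. The floor of 3 UMIs covers counting error only. The ± values are SDs over libraries or SEs of the fits, and both hold the spread between libraries.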

Additional observations from a re-analysis of the deposited data

Results flagged for a closer look

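The age change differed between macrophages and other cell groups by an interaction term (edgeR, adjusted over 12897 genes). In Sox10-positive cells the log2 change from P1 to P60 was higher than in macrophages by 2.92 for C1qa, 3.51 for C1qb, 3.67 for C1qc, 3.21 for Tyrobp and 2.85 for Apoe. In Pdgfra-positive cells it was higher by 1.40 for C1qa, 0.865 for C1qc, 1.35 for Tyrobp, 2.60 for Tmem119, 1.11 for Csf1r and 2.18 for Apoe. The C1q, Tyrobp and Csf1r differences concern levels of at most 215 CPM outside macrophages, and the part of free RNA in them was not tested. The P60 Sox10-positive sums held 16, 26 and 34 cells, with 53 C1q UMIs in all. As described above, the age calls of C1qa, C1qc and Tyrobp in these cells rested on P60 replicate 3. The Apoe differences kept their call when each library was left out in turn, with values of 2.60 to 3.12 in Sox10-positive and 2.06 to 2.36 in Pdgfra-positive cells.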

How the results depend on the processing

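Trem2, P2ry12, Tmem119 and C1qa in macrophages between the ages, and Trem2 and Apoe between the Retnla classes, kept direction and call in all 15 alternatives run for each, with log2 ranges of -2.21 to -1.93, -1.21 to -0.84, -3.83 to -2.53, 0.43 to 0.76, -1.92 to -1.12 and -1.43 to -1.02. The replicate block left Tyrobp in macrophages at -0.29 (adjusted p = 0.053), and dropping the block from the Retnla comparison lowered its calls from 829 to 238 genes. DESeq2 gave 259 there. Leaving out 1 library gave 496 (without P60 replicate 3) to 737 calls between the Retnla classes, 1606 (without P1 replicate 3) to 2653 calls in Retnla-low against P1 cells, where all libraries gave 2501, and 620 to 1706 calls in Sox10-positive cells, where all libraries gave 1646 and leaving out P1 replicate 1, 2 or 3 gave 649, 620 and 647. A gate with both Ptprc and Cd68 lowered the calls in immune cells from 4468 to 2375, and no filter raised those in Sox10-positive cells to 2517. Members called in macrophages were 4 to 8 with 1 library left out. In the Retnla comparison 5 were called with cells of more immune than other markers or of under 10 Dcn UMIs (the latter chosen after seeing the data), and 7 without other leukocyte markers. In Sox10-positive cells 1 to 5 were called with 1 library left out, and in Rgs5-positive cells 2 to 4, or 3 with no filter.

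Log2 values near 0 turned sign. C1qc in immune cells was 0.017 under 10 Dcn UMIs. With 4 of 9 myeloid genes only, C1qb was -0.045 and Csf1r -0.058 in macrophages, C1qb 0.030 between the Retnla classes, C1qb -0.0085 and C1qc -0.011 in Retnla-high against P1 cells and C1qb -0.068 in Retnla-low against P1 cells. Leaving out 1 library gave -0.20 to 0.016 for C1qa, -0.15 to 0.052 for C1qb (0.018 without P60 replicate 2) and -0.40 to 0.031 for P2ry12 between the Retnla classes, and -0.046 to 0.28 for C1qb in Retnla-high against P1 cells. With a Retnla split at 500 CPM, C1qb was 0.0054. The immune share difference was -0.609 points with 3 UMIs, and the P2ry12 share difference between the Retnla classes was -0.757 (without P60 replicate 3) to 2.5 points. The cause was not tested in any of these. The P60 macrophage sums held 14, 13 and 2 Tmem119 UMIs, which limits that gene most.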

Other observations

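Genes of perivascular or epineurial macrophages were higher in P60 macrophages for 15 of 16 tested and lower for 1, with a median log2 change of 1.89, where 36.0% of all genes tested changed. Mgl2, a lectin gene, rose from 38.6 ± 2.25 to 1076 ± 85.2 CPM (log2 change 4.87), Cd209f from 5.30 to 674 CPM and Cd209d from 0.139 to 245 CPM, and Cd209g was at 0 CPM at P1 and 186 ± 32.2 CPM at P60. In Retnla-high against Retnla-low cells 12 of 16 were higher and 1 lower (median 1.04, 14.0% of all genes called), with Cd209g at 353 ± 52.5 against 32.8 ± 7.24 CPM, Cd209f at 1273 against 127 CPM, Fcna at 813 against 102 CPM and Cd209d at 418 against 88.9 CPM. Reads of near-identical Cd209 genes may have been split between them.

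Of 6 tested genes of other leukocytes, 3 were higher and 2 lower in P60 macrophages (median 1.09), beside 36.0% of all genes. Cd209a, a gene of dendritic cells that is also in the Cd209 family, rose from 9.59 ± 7.76 to 157 ± 29.3 CPM and the monocyte gene Ccr2 from 104 ± 15.1 to 406 ± 64.3 CPM, while the neutrophil gene S100a8 fell from 50.9 ± 38.9 to 0.779 ± 0.738 CPM. In Retnla-high against Retnla-low cells 3 of 4 tested genes passed, beside 14.0% of all genes. Ccr2 was higher (528 ± 26.8 against 298 ± 77.6 CPM), and Cd79b (5.37 against 46.9 CPM) and Plac8 (51.4 against 201 CPM) were lower.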
